A study of Mus musculus with 8 samples.

Results

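The 39 Hox genes of the mouse were taken from the deposited gene count table by symbol, as every gene named Hoxa, Hoxb, Hoxc or Hoxd followed by a number, out of 51912 genes. They comprised 11 Hoxa, 10 Hoxb, 9 Hoxc and 9 Hoxd genes. RNA had been sequenced from mesenchymal cells sorted from embryonic day 16 mouse lung, although elsewhere the labels give the tissue as bulk lung. Sin3a CKO embryos carried Tbx4-rtTA, tetO-Cre and a pair of floxed Sin3a alleles (F/F), and Control embryos carried the same transgenes with 1 floxed and 1 wild-type allele (F/+). Doxycycline, which lets the rtTA protein switch on Cre, was given from embryonic day 12 in both groups, so Control cells could lose 1 Sin3a allele by the same route. The groups held 4 libraries each, labelled as biological replicates, without the number of embryos in a library. The comparison asks which Hox genes differed between cells that lose both Sin3a alleles and cells that lose 1 of them, as far as genotype sets it, by cluster and by position number.

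Hox genes encode homeodomain transcription factors that give cells a regional identity along the body axis. In mammals they lie in 4 clusters, and genes at the same position in different clusters, called paralogs, share the same number, from 1 at the anterior end to 13 at the posterior end. Genes with low numbers are used at anterior levels of that axis, and the embryonic lung mesenchyme is known for genes of the middle numbers, of which Hoxa5 is required for normal lung and tracheal development in the mouse. Chromatin regulators hold the clusters open or closed, Polycomb complexes keeping them silent and trithorax complexes active, and retinoic acid induces genes at the anterior end. Sin3a encodes the scaffold of a histone deacetylase corepressor complex.

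The libraries held 96098322 to 108493347 counts each. Genes with at least 1 count numbered 31946, 33188, 27371 and 26521 in Sin3a CKO 1 to 4 and 25217, 31061, 33104 and 25015 in Control 1 to 4. On the main axis of variation of log2(CPM + 1), which held 53.5% of the variance, the groups lay apart, from -41.3 to -26.8 in Sin3a CKO and from 30.2 to 40.1 in Control. On the next axis Control 4 stood apart at -37.4, against 5.15 to 23.4 in the other controls. Sin3a CKO 4 did so too, at -24.3, against 0.905 to 17.9 in the other Sin3a CKO libraries. CPM is the count per 1000000 counts, on library sizes scaled by TMM (trimmed mean of M values). Sin3a itself had 56.6, 61.0, 53.2 and 61.0 CPM in Sin3a CKO and 53.7, 46.8, 46.2 and 58.7 CPM in Control, a log2 fold change of 0.17 ± 0.09 (SE, edgeR adjusted p = 0.191). With a block for the prefix of the library identifiers Sin3a was higher in Sin3a CKO, by 0.29 (adjusted p = 0.0332). No source used here names the floxed exons, so that level does not check the genotype. Mesenchyme markers were abundant in both groups, with a sum over 10 genes of 12305 to 13884 CPM in Sin3a CKO and 17130 to 23563 CPM in Control, and 6 of the 10 were lower. Erythroid markers summed to 1097 to 4291 CPM in Sin3a CKO and 102 to 884 CPM in Control, with 6 of 11 higher. Epithelium markers summed to 57.1 to 1326 CPM in Sin3a CKO and 56.9 to 457 CPM in Control, and haematopoietic markers to 235 to 385 CPM in Sin3a CKO and 20.2 to 483 CPM in Control. In the epithelium and haematopoietic lists 0 of 12 and 0 of 10 genes passed edgeR's test, and 0 had an unadjusted p under 0.05 or passed DESeq2 or limma-voom. Smooth muscle markers summed to 1298 to 1444 CPM in Sin3a CKO and 1525 to 2354 CPM in Control, with 5 of 6 lower and a median log2 fold change of -0.98. Of neural and glial markers 3 of 12 were lower, of mesothelium markers 2 of 8 and of endothelium markers 1 of 12, and in these 3 lists 0 were higher with edgeR, at an unadjusted p under 0.05, with DESeq2 or with limma-voom. Of all tested genes 17.3% were higher and 16.1% lower with edgeR, the shares to set beside every marker list. The counts of 3 of 12, 2 of 8 and 1 of 12 are near that lower share. The part of these other cells in the Hox results was not tested.

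The clusters lie on separate chromosomes in GRCm38 (mm10). Hoxa lies on chromosome 6, and Hoxb spans 96194316 to 96368256 on chromosome 11, Hoxc 102921103 to 103036852 on chromosome 15 and Hoxd 74668310 to 74765142 on chromosome 2. Over the 171 pairs of Hox genes that passed the count filter, the longest exact run of bases shared by GENCODE M21 transcripts of both genes had a median of 17 bases. It was 14 bases for Hoxa4 with Hoxb4, 23 for Hoxa6 with Hoxb6, 26 for Hoxa5 with Hoxb5 and at most 52, for Hoxa6 with Hoxb4.

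Of the 39 Hox genes 19 passed the count filter, and 7 of these 19 (36.8%) passed the quasi-likelihood test of edgeR at an adjusted p under 0.05, where 33.4% of all 20315 tested genes did. With DESeq2 8 of 18 passed, 4 higher and 4 lower, where 42.1% of all genes did. With upper-quartile scaling 7 of 19 passed (36% of all genes), with a block for identifier prefix 6 of 19 (35.7%), with Control 4 left out 7 of 21 (31.4%) and with no filter on low counts 6 of 38 (14.9%). With Control 2 left out 3 of 19 were higher and 0 lower, where 2653 of all 21016 genes were higher and 2743 lower. Hoxa4, Hoxb4 and Hoxb6 were higher, where 17.3% of all tested genes were, and 4 genes, Hoxa6, Hoxa7 and Hoxc4 among them, were lower, where 16.1% were. The same 3 and 4 genes had groups that did not overlap, a pattern shown by 36.1% of all tested genes (18.5% higher and 17.5% lower). The 19 genes had a median log2 fold change of -0.07, against 0.04 for all tested genes, and the 7 called genes had a median absolute change of 0.56, against 0.67 for all called genes. By cluster, 1 of 8 Hoxa genes was higher and 3 were lower, 2 of 8 Hoxb genes were higher and 0 lower (0 also at an unadjusted p under 0.05 and with DESeq2 or limma-voom), 1 of 2 Hoxc genes was lower, and the 1 Hoxd gene tested did not pass. In RNA from a mass of sorted cells, fewer cells of a type and less RNA per cell cannot be told apart.

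**Figure D1:**
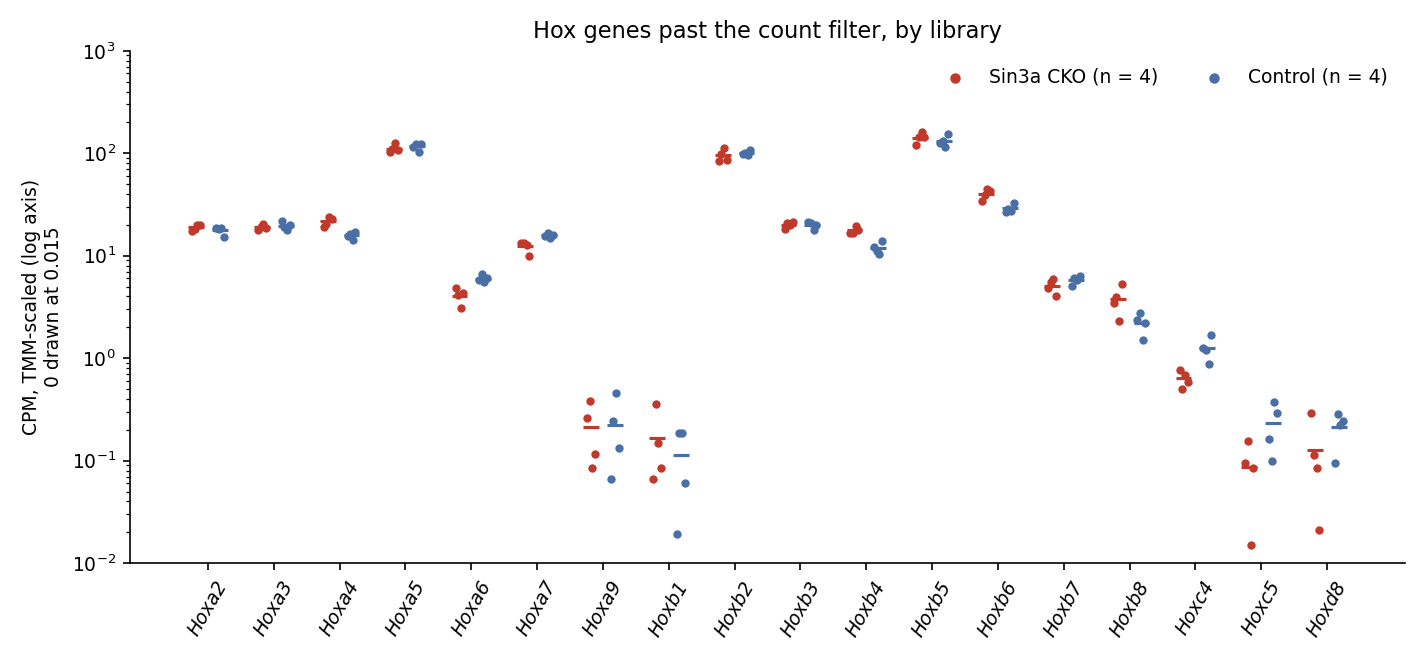
CPM of 18 of the 19 Hox genes past the count filter in each library on a log axis, Sin3a CKO (red, left of each pair) and Control (blue, right), with a bar at the mean of 4 libraries. The pairs that separate without overlap are Hoxa4, Hoxa6, Hoxa7, Hoxb4, Hoxb6 and Hoxc4, and a value of 0 is drawn at the foot of the axis.

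The genes with position number 4 moved in both directions. Hoxb4 (ENSMUSG00000038692, chromosome 11, 96318267 to 96321638), whose protein is best known for promoting the renewal of blood stem cells, had 16.6, 16.7, 19.6 and 17.7 CPM in Sin3a CKO 1 to 4, against 12.1, 11.2, 10.5 and 14.0 CPM in Control 1 to 4. Every Sin3a CKO library lay above every Control library, and the log2 fold change was 0.56 ± 0.12 (SE, edgeR adjusted p = 0.00463). Hoxa4 (ENSMUSG00000000942, chromosome 6, 52189671 to 52191753), its Hoxa paralog, had 19.1, 20.4, 24.1 and 22.9 CPM in Sin3a CKO, against 15.6, 16.4, 14.1 and 17.1 CPM in Control. The groups were again apart, and the log2 fold change was 0.45 ± 0.11 (adjusted p = 0.00904). Hoxc4 (ENSMUSG00000075394, chromosome 15, 103018934 to 103036852), the paralog in the Hoxc cluster, had 0.761, 0.503, 0.685 and 0.587 CPM in Sin3a CKO, against 1.27, 1.20, 0.881 and 1.68 CPM in Control. All Sin3a CKO libraries lay below all Control libraries, and Hoxc4 fell by 0.99 ± 0.28 on the log2 scale (adjusted p = 0.0232). Its call ended without Sin3a CKO 2, Control 1 or Control 2 (adjusted p = 0.0640, 0.0602 and 0.0521) and with a block for identifier prefix (-0.74, adjusted p = 0.113) or replicate number (-0.97, adjusted p = 0.0554).

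The promoters of Hoxb4 and Hoxc4, paralogs that moved in opposite directions, and of Hoxa6, which was lower, are shown from 250 bases before to 50 bases after the start in RefSeq (GRCm38.p6), with capitals on TGACCT, the reverse complement of the nuclear receptor element AGGTCA that retinoic acid receptors can bind.
Hoxb4 promoter (chr11:96318017-96318316, plus strand): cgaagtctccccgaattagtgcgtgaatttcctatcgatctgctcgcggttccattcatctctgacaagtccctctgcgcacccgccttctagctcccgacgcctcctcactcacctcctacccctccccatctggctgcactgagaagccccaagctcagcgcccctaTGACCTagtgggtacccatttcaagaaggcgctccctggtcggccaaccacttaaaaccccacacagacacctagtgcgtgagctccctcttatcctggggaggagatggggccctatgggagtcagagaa
Hoxc4 promoter (chr15:103034145-103034444, plus strand): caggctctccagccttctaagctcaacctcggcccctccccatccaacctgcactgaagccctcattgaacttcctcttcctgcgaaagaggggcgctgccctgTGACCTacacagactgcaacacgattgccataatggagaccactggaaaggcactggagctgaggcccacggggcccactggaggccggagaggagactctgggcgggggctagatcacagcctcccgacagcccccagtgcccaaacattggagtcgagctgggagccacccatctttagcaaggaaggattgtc
Hoxa6 promoter (chr6:52208623-52208922, minus strand): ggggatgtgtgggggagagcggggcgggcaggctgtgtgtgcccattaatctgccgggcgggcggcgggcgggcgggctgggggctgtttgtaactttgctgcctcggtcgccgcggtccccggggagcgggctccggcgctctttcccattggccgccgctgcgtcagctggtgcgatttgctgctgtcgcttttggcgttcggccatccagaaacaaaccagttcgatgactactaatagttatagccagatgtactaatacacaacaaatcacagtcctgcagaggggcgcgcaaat
Both Hoxb4 and Hoxc4 hold the element, which on either strand was in 16.3% of all 32851 promoters of that length and in 7 of 24 Hox promoters (22 Hox genes). Of the 11 promoters of tested Hox genes 4 hold it, among them those of Hoxa5 and Hoxd8, which did not pass the test. The Hoxa6 promoter had 26 CG pairs and 62.0% G or C, that of Hoxb4 14 and 58.0% and that of Hoxc4 9 and 60.3%, where all promoters had medians of 7 and 52.7%. Searched likewise on both strands, the joint HOX and PBX site TGATNNAT was in 4 of 24 Hox promoters and 8.85% of all, and the MEIS and PREP site TGACAG in 2 of 24 and 19.2% of all. The E-box CACGTG, a site of MYC, MAX and the MXD proteins that recruit SIN3, was in 5 of 24 and 7.15% of all, and in 0 of the 11 promoters of tested Hox genes. TATAAA was in 4 of 24 and 13.6% of all, and GGGCGG, the GC box, in 10 of 24 and 35.7% of all. A match describes these letters and is not a bound site.

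Position 6 was the other number at which paralogs parted. Hoxb6 (ENSMUSG00000000690, chromosome 11, 96292476 to 96301569) had 34.4, 39.2, 45.0 and 42.8 CPM in Sin3a CKO, against 26.8, 28.6, 27.4 and 32.8 CPM in Control. The groups did not overlap, and the log2 fold change was 0.48 ± 0.10 (adjusted p = 0.00552). Hoxa6 (ENSMUSG00000043219, chromosome 6, 52206288 to 52208722), which lies between Hoxa5 and Hoxa7 on chromosome 6, had 4.80, 4.11, 3.06 and 4.29 CPM in Sin3a CKO, against 5.75, 6.56, 5.50 and 6.08 CPM in Control. The Sin3a CKO libraries were all lower, and Hoxa6 fell by 0.56 ± 0.17 on the log2 scale (adjusted p = 0.0302). That call ended without Sin3a CKO 2, Control 1 or Control 2 (adjusted p = 0.0701, 0.0655 and 0.0915) and with the prefix block (-0.49, adjusted p = 0.0902).

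Hoxa7 (ENSMUSG00000038236, chromosome 6, 52214491 to 52221854), a gene of the middle of the cluster known for patterning vertebrae, had 13.3, 13.2, 12.7 and 10.001 CPM in Sin3a CKO, against 15.7, 16.8, 14.97 and 16.1 CPM in Control. No libraries overlapped between groups, the lowest was Sin3a CKO 4, and the log2 fold change was -0.37 ± 0.11 (adjusted p = 0.0333). Without Sin3a CKO 2, Control 1, Control 2 or Control 3 the Hoxa7 call ended (adjusted p = 0.0541, 0.0763, 0.0943 and 0.0508), as it did with a block for replicate number (adjusted p = 0.0531). Exons of Hoxa4 share 255 bases with the antisense gene Gm29430 and those of Hoxa7 share 586 bases with the antisense gene Hoxaas3, and libraries of this kind do not mark the strand, so counts there cannot be told apart. Exons of Hoxb4, Hoxb6, Hoxa6 and Hoxc4 overlap no exon of another gene in that annotation, though Hoxa6 lies within the span of Hoxa3.

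Library identifiers begin with 1 of 3 prefixes of unstated meaning, and the directions could be compared within the 2 prefixes that held both groups. In prefix s686 Sin3a CKO 4 was set against Control 1 and 2, and in prefix s1244 Sin3a CKO 1, 2 and 3 were set against Control 3, so neither difference has a test. On the log2 scale the differences in s686 and s1244 were 0.60 and 0.74 for Hoxb4, 0.52 and 0.58 for Hoxa4 and 0.63 and 0.52 for Hoxb6. They were -0.52 and -0.49 for Hoxa6, -0.70 and -0.19 for Hoxa7 and -1.07 and -0.46 for Hoxc4. All 6 of these genes had the same sign within both prefixes. Their groups did not overlap over all libraries, which fixes that sign in advance, so this agreement adds nothing to the calls.

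**Figure D2:**
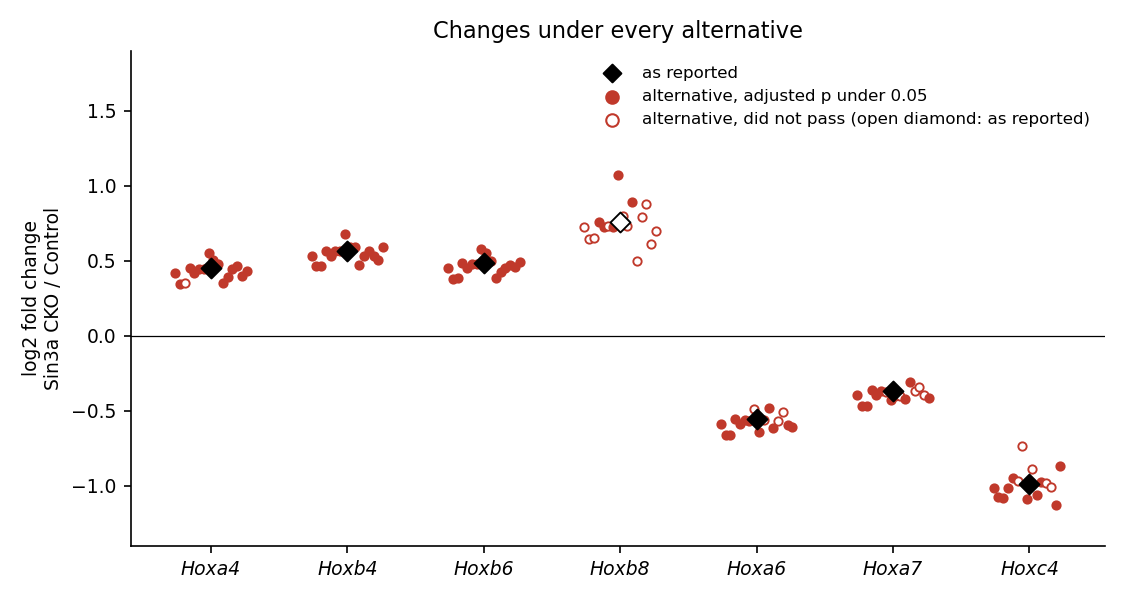
Log2 fold change (Sin3a CKO over Control) of 6 called Hox genes and Hoxb8 as reported (diamonds) and under 16 alternatives of scaling, filter, test, block and left-out library (circles, filled where the adjusted p was under 0.05). Hoxc4 has 15 circles, as it was not tested at a mean of at least 1 CPM. Hoxb4 and Hoxb6 pass in 16 of 16, and open circles show where Hoxa4, Hoxa6, Hoxa7 and Hoxc4 did not.

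Hoxb8, a gene known for holding myeloid progenitors in an immature state when overexpressed, had 3.42, 3.92, 2.29 and 5.33 CPM in Sin3a CKO, against 2.36, 2.76, 1.51 and 2.23 CPM in Control. The groups overlapped at Sin3a CKO 3, and the log2 fold change of 0.76 ± 0.28 did not pass (adjusted p = 0.0671). It passed in 5 of 16 alternatives, among them those that left out Sin3a CKO 3 (0.89, adjusted p = 0.0277) or blocked for prefix (1.07, adjusted p = 0.0100), and the differences within s686 and s1244 were 1.06 and 1.05.

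The Hox genes with the highest levels per kb of exon, Hoxa5, Hoxb5 and Hoxb2, did not pass the test. Hoxa5 had 101.7, 109.0, 125.8 and 106.9 CPM in Sin3a CKO, against 115.8, 122.0, 103.2 and 124.3 CPM in Control. The groups overlapped widely, with a log2 fold change of -0.07 ± 0.09 (adjusted p = 0.617). Hoxb5, whose product takes part in airway branching, had 121.7, 142.7, 161.9 and 143.2 CPM in Sin3a CKO, against 124.5, 130.3, 113.7 and 152.6 CPM in Control. These overlapped too, with a log2 fold change of 0.13 ± 0.11 (adjusted p = 0.435). Hoxb2, which patterns the hindbrain, had 84.3, 98.3, 112.2 and 86.4 CPM in Sin3a CKO, against 99.1, 99.9, 97.1 and 108.3 CPM in Control. Its groups overlapped through Sin3a CKO 3 and 2, the log2 fold change was -0.08 ± 0.10 (adjusted p = 0.567), and without Sin3a CKO 3 it was -0.21 and passed (adjusted p = 0.0313). Exons of Hoxb2 and Hoxb3 share 953 and 2250 bases with the antisense gene Hoxb3os, and counts there cannot be told apart either.

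Among the other anterior genes, Hoxa2, which sets the identity of the second pharyngeal arch, averaged 18.9 ± 1.22 CPM in Sin3a CKO and 17.7 ± 1.72 CPM in Control (SD, n = 4 each). Hoxa3, needed for thymus and parathyroid development, averaged 19.1 ± 1.13 CPM in Sin3a CKO and 19.7 ± 1.74 CPM in Control, and Hoxb3 20.1 ± 1.35 CPM in Sin3a CKO and 20.02 ± 1.60 CPM in Control. Their log2 fold changes were 0.09 ± 0.10, -0.04 ± 0.09 and 0.005 ± 0.094, each within the spread between libraries, and the sign of all 3 depended on the alternative. Hoxb7 averaged 5.12 ± 0.849 CPM in Sin3a CKO and 5.81 ± 0.520 CPM in Control, with a log2 fold change of -0.18 ± 0.16 (adjusted p = 0.448). Near the filter, Hoxa9, Hoxb1, Hoxc5 and Hoxd8 stayed between 0 and 0.454 CPM in every library. Their groups overlapped, their SEs were 0.71 to 0.91, and these 4 did not pass.

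**Figure D3:**
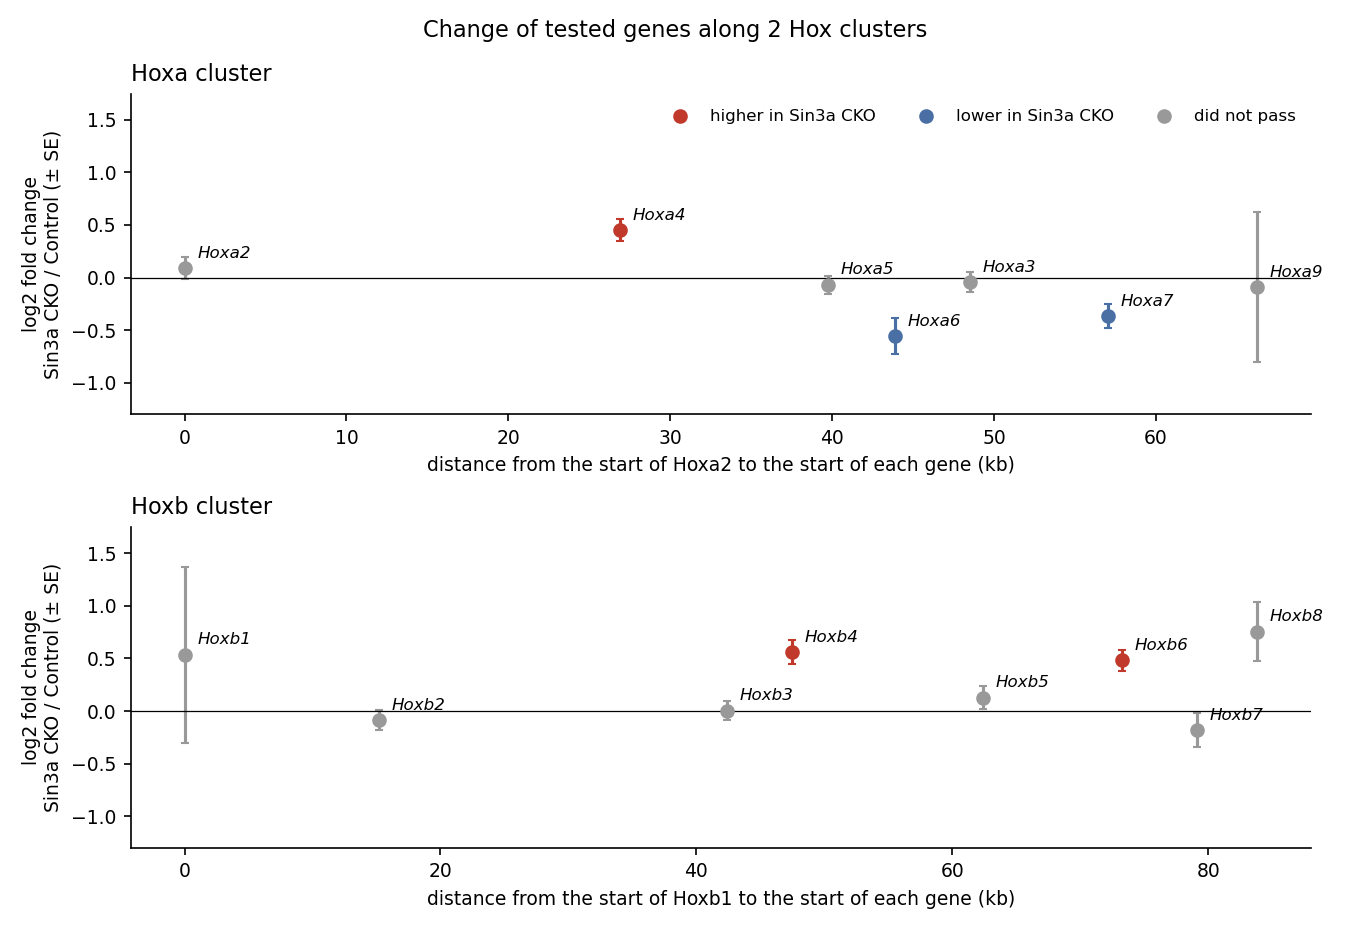
Log2 fold change (Sin3a CKO over Control, ± SE) of 7 tested Hoxa and 8 tested Hoxb genes against the distance in kb from the annotated start of Hoxa2 or Hoxb1 to that of each gene. Called genes (red higher, blue lower) and genes that did not pass (grey) are interspersed along both clusters, and Hoxa3 is drawn at the start of its longest annotated transcript, beyond Hoxa6.

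Seen along the chromosome, the called genes did not form an unbroken stretch. In the Hoxb cluster the higher genes Hoxb4 and Hoxb6 lie on either side of Hoxb5, which did not pass, and Hoxb7 follows with a log2 fold change of -0.18. Across the Hoxa cluster the order from Hoxa4 to Hoxa7 ran 0.45, -0.07, -0.56 and -0.37 on the log2 scale. Summed over members, Hoxa genes had 188.2 ± 13.5 CPM in Sin3a CKO and 193.6 ± 11.7 CPM in Control, and Hoxb genes 324.9 ± 34.2 CPM in Sin3a CKO and 300.5 ± 26.1 CPM in Control (SD, n = 4 each). Both sums overlapped between groups. Hoxc genes summed to 0.930, 1.10, 0.738 and 0.723 CPM in Sin3a CKO, against 1.49, 1.49, 1.76 and 2.04 CPM in Control, with no overlap. Most of that sum was Hoxc4, with a mean of 0.634 of 0.873 CPM in Sin3a CKO and 1.26 of 1.70 CPM in Control. All 39 genes together made 514.1 ± 47.2 CPM in Sin3a CKO and 496.2 ± 35.7 CPM in Control, of which Hoxa5, Hoxb5 and Hoxb2 made 67.7% ± 1.36 in Sin3a CKO and 70.03% ± 0.976 in Control.

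Per kb of exon, which lets genes be ranked against each other, Hoxa5 was the highest in both groups at 59.1 ± 5.56 CPM per kb in Sin3a CKO and 62.0 ± 5.03 CPM per kb in Control. Hoxb5 followed at 51.1 ± 5.91 CPM per kb in Sin3a CKO and 46.8 ± 5.88 CPM per kb in Control. Hoxb2 came next at 27.3 ± 3.69 CPM per kb in Sin3a CKO and 29.0 ± 1.43 CPM per kb in Control, and then Hoxb6 at 20.5 ± 2.37 CPM per kb in Sin3a CKO and 14.7 ± 1.37 CPM per kb in Control. Within Sin3a CKO the ranges of Hoxa5 and Hoxb5 overlapped, those of neighbouring ranks from Hoxb5 through Hoxb2, Hoxb6, Hoxa4, Hoxa2 and Hoxb4 to Hoxb3 did not, and Hoxb3, Hoxa6, Hoxa7, Hoxb7 and Hoxa3 formed a chain in which each overlapped the next. Within Control Hoxa5 and Hoxb5 did not overlap, Hoxa2 overlapped Hoxa4, and Hoxb3, Hoxb4, Hoxb7 and Hoxa3 formed such a chain. The called genes changed places among the middle ranks. By rank Hoxb4 stood at 7 in Sin3a CKO, with 6.87 ± 0.547 CPM per kb, and at 10 in Control, with 4.66 ± 0.592 CPM per kb. Hoxa6 stood at 9 in Sin3a CKO, with 4.65 ± 0.836 CPM per kb, and at 7 in Control, with 6.83 ± 0.527 CPM per kb, and Hoxa7 at 10 in Sin3a CKO and 8 in Control. Hoxc4 ranked 15 in both groups, and the 4 genes near the filter took the last ranks.

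Ratios of paralogs within a library do not depend on how libraries are scaled. For the 6 pairs among numbers 4 and 5 the difference of the mean log2 count ratio was tested by an exact 2-sided permutation test over libraries, which 4 against 4 libraries cannot take below 0.0286. The ratio of Hoxb4 to Hoxc4 was 4.44, 5.04, 4.83 and 4.90 in Sin3a CKO and 3.24, 3.22, 3.57 and 3.06 in Control on the log2 scale. All Sin3a CKO libraries were higher, by 1.53 on average (exact permutation p = 0.0286, adjusted over 6 pairs p = 0.0858). Hoxa4 to Hoxc4 differed likewise by 1.41 without overlap (exact p = 0.0286, adjusted p = 0.0858). The separate changes of Hoxa4, Hoxb4 and Hoxc4 require both separations, so these p-values add nothing to the results of the single genes. Hoxa4 to Hoxb4, at 0.29 ± 0.07 in Sin3a CKO and 0.41 ± 0.11 in Control, overlapped (exact p = 0.2, adjusted p = 0.2). Hoxa5 to Hoxb5, at -0.36 ± 0.07 in Sin3a CKO and -0.16 ± 0.09 in Control, overlapped through Control 4 (exact p = 0.0571, adjusted p = 0.114). The ratios of Hoxa5 and Hoxb5 to Hoxc5 rested on a gene near 0 counts and overlapped (adjusted p = 0.172 and 0.129). No pair passed after adjustment. Even the pairs at the smallest possible p, 0.0286, were adjusted to 0.0858, so the test could hardly pass and nothing is concluded from that.

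The pairs at numbers 2, 3, 6 and 7 were added after the values of their genes were seen and have no test. The log2 ratio of Hoxa6 to Hoxb6 was -2.84, -3.25, -3.88 and -3.32 in Sin3a CKO and -2.22, -2.12, -2.32 and -2.43 in Control. The Sin3a CKO libraries all lay lower, by 1.05 on average, as the separate changes of these genes require. Hoxa2 to Hoxb2, Hoxa3 to Hoxb3 and Hoxa7 to Hoxb7 overlapped between groups, with mean differences of 0.19, -0.04 and -0.18.

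**Figure D4:**
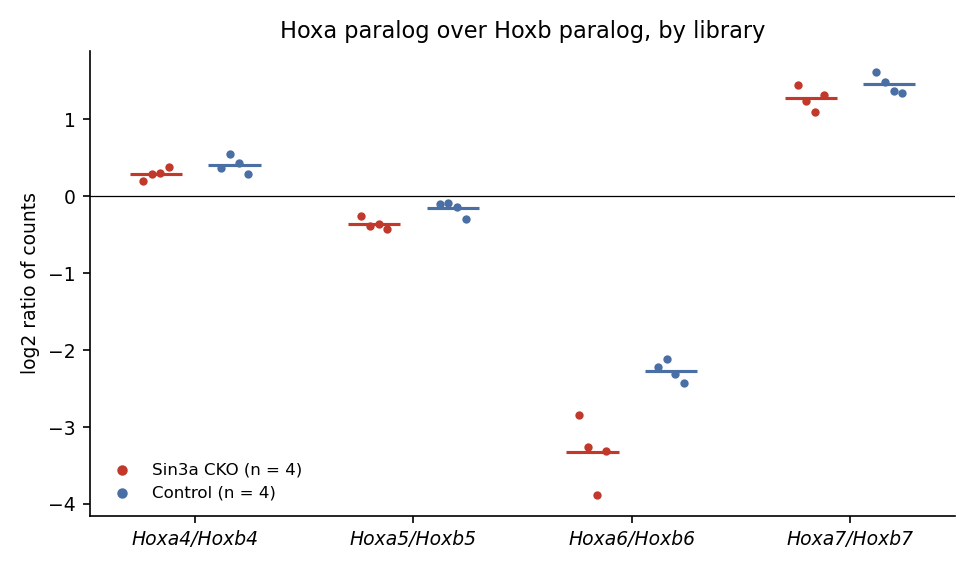
Log2 ratio of counts of the Hoxa paralog to the Hoxb paralog in each library at numbers 4 to 7, Sin3a CKO (red, left) and Control (blue, right), with a bar at the mean of 4 libraries. The ratio at number 6 separates the groups, at -3.88 to -2.84 in Sin3a CKO and -2.43 to -2.12 in Control, and the other 3 overlap.

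The 20 Hox genes below the filter were nearly silent in both groups. They are Hoxa10, Hoxa11, Hoxa13, Hoxb9, Hoxb13, Hoxc6, Hoxc8 to Hoxc13, Hoxd1, Hoxd3, Hoxd4 and Hoxd9 to Hoxd13, which include all posterior genes of the table but Hoxa9. Hoxa11 had 0 counts in all 8 libraries, which allows up to 3 counts, or 0.0277 to 0.0312 CPM on unscaled totals, in a library. The highest count was 35, for Hoxc8 in Control 3, and Hoxc8 summed to 19 counts over Sin3a CKO and 52 over Control. Next highest was Hoxc12, with 17 counts in Sin3a CKO 2 and 2 in Control 3 only. Hoxd13 summed to 0 counts in Sin3a CKO and 16 in Control, Hoxd4 to 2 in Sin3a CKO and 16 in Control, and Hoxb9 to 27 in Sin3a CKO and 34 in Control. Posterior genes of numbers 9 to 13 summed to 54, 93, 27 and 29 counts in Sin3a CKO 1 to 4 and to 28, 57, 115 and 24 counts in Control 1 to 4. The groups overlapped, and in both the libraries with the most genes above 0 counts, Sin3a CKO 2 and Control 3, had the highest sums. Counts from PCR without molecular identifiers are not independent molecules, so such limits cover counting error only.

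Inside the clusters lie 46 further annotated genes, of which 10 passed the filter, 2 were higher and 0 lower, with a median log2 fold change of 0.35 (all tested genes, 17.3% higher, 16.1% lower and a median of 0.04). Hotairm1, a noncoding RNA of the Hoxa cluster whose exons overlap a gene on the other strand, had 3.804, 3.30, 4.69 and 3.51 CPM in Sin3a CKO, against 2.57, 2.12, 2.21 and 1.91 CPM in Control. It was higher in every Sin3a CKO library, by 0.80 ± 0.19 on the log2 scale (adjusted p = 0.00909), a call that ended without a filter on low counts (0.69, adjusted p = 0.0549). Hoxb3os, antisense to Hoxb2 and Hoxb3, averaged 5.82 ± 1.45 CPM in Sin3a CKO and 3.50 ± 0.684 CPM in Control, a log2 fold change of 0.73 ± 0.22 (adjusted p = 0.0256). That call ended in 9 of 16 alternatives, among them without Sin3a CKO 2, Sin3a CKO 3, Control 1, Control 3 or Control 4 (adjusted p = 0.0538, 0.0888, 0.0562, 0.0693 and 0.0839). Counts in the bases that Hotairm1 and Hoxb3os share with genes on the other strand cannot be told apart from counts of those genes. Of the 24 genes flanking the clusters, 20 were tested, 7 were higher and 0 lower, with a median of 0.20, against the same shares of all tested genes. In both lists 0 genes were lower also at an unadjusted p under 0.05 and with DESeq2 or limma-voom. Snx11, a sorting nexin gene 399299 bases outside the Hoxb cluster, averaged 42.6 ± 3.31 CPM in Sin3a CKO and 21.4 ± 0.297 CPM in Control, a log2 fold change of 0.99 ± 0.08 (adjusted p = 3.65e-05). Calcoco1, a coiled-coil gene 198925 bases outside the Hoxc cluster, averaged 179.6 ± 4.86 CPM in Sin3a CKO and 109.3 ± 6.53 CPM in Control, a log2 fold change of 0.72 ± 0.07 (adjusted p = 7.87e-05).

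Hox proteins bind DNA together with TALE homeodomain cofactors of the PBX, MEIS and PREP families. Of 9 genes for such cofactors 2 were higher, 1 lower and 6 did not pass, near the 33.4% of all tested genes that passed. With upper-quartile scaling 3 were lower, where 4522 of all 20315 tested genes were. Meis3, whose frog counterpart patterns the hindbrain, had 4.63, 4.31, 8.01 and 2.63 CPM in Sin3a CKO, against 33.1, 31.2, 30.9 and 29.6 CPM in Control. All Sin3a CKO libraries lay far below all Control libraries, and Meis3 fell by 2.67 ± 0.29 on the log2 scale (adjusted p = 0.000172), between -3.06 and -2.49 over 16 alternatives. Meis2 averaged 58.5 ± 4.35 CPM in Sin3a CKO and 41.9 ± 5.17 CPM in Control (0.48 ± 0.10, adjusted p = 0.00447). Meis1, which encodes a DNA-binding partner of many Hox proteins, averaged 256.5 ± 28.0 CPM in Sin3a CKO and 225.7 ± 27.6 CPM in Control and did not pass (adjusted p = 0.229).

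**Figure D5:**
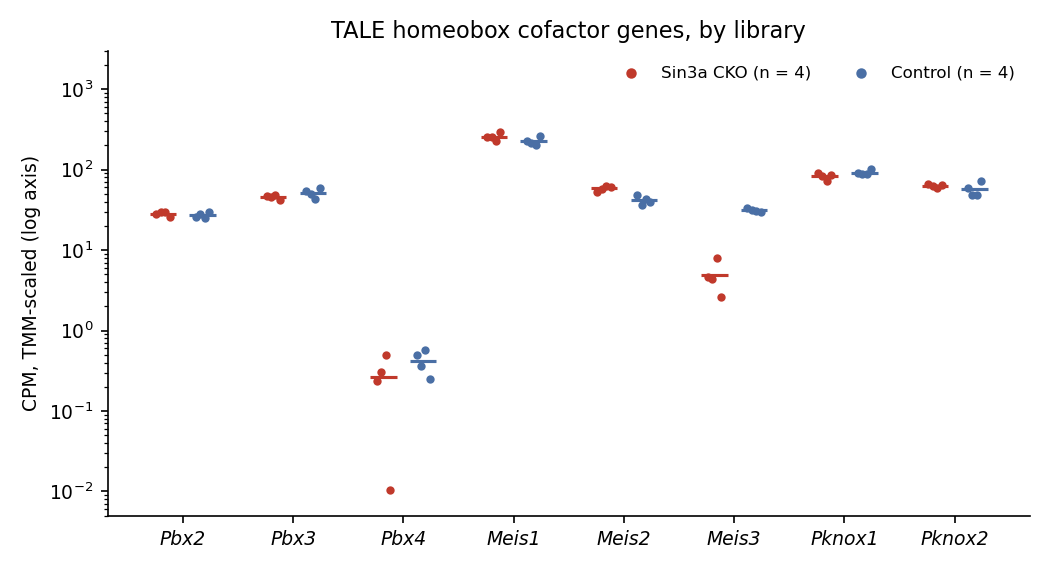
CPM of 8 of the 9 TALE cofactor genes in each library on a log axis, Sin3a CKO (red, left) and Control (blue, right), with a bar at the mean of 4 libraries. Meis3 lies at 2.63 to 8.01 CPM in Sin3a CKO and 29.6 to 33.1 CPM in Control, Meis2 is higher in Sin3a CKO without overlap, and the other 6 overlap.

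Polycomb repressive complex 1 (PRC1) compacts silent Hox chromatin, and 3 of its 20 subunit genes were higher, 3 lower and 14 did not pass, with a median of -0.01. These counts are near the shares of all tested genes, 17.3% higher and 16.1% lower. With upper-quartile scaling 6 PRC1 genes were lower, where 4522 of all 20315 tested genes were. Its alternative core subunits Pcgf2 and Bmi1 moved in opposite directions. Pcgf2, also known as Mel18, had 11.9, 13.1, 16.1 and 12.8 CPM in Sin3a CKO, against 6.12, 6.39, 7.09 and 6.66 CPM in Control, a log2 fold change of 1.04 ± 0.13 (adjusted p = 0.000264). Bmi1 had 49.0, 44.5, 36.3 and 46.1 CPM in Sin3a CKO, against 74.1, 70.6, 64.2 and 75.7 CPM in Control, a log2 fold change of -0.69 ± 0.10 (adjusted p = 0.000676). Neither gene had overlapping groups. Kdm2b, which recruits a variant PRC1 to unmethylated CG islands, was higher by 0.47 ± 0.11 (adjusted p = 0.00864), and the chromobox gene Cbx6 was lower (-0.41 ± 0.08, adjusted p = 0.00260).

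On the activating side, 6 of 15 trithorax and MLL complex genes were higher (17.3% of all tested genes), 0 lower (16.1% of all) and 9 did not pass, with a median of 0.20. Of the 15, 1 was lower at an unadjusted p under 0.05, 1 with DESeq2 and 2 with upper-quartile scaling, where 4522 of all 20315 genes were. Kdm6b, a demethylase of the Polycomb histone mark, averaged 23.6 ± 4.46 CPM in Sin3a CKO and 12.6 ± 2.22 CPM in Control (0.91 ± 0.17, adjusted p = 0.00240). Dpy30, a subunit shared by the MLL complexes, averaged 64.6 ± 6.18 CPM in Sin3a CKO and 50.1 ± 1.65 CPM in Control (0.37 ± 0.08, adjusted p = 0.00609), a call that ended without a filter on low counts (adjusted p = 0.0561), where 2 of the 15 were higher and 2 lower. Of all 40662 genes tested without that filter 2233 were higher and 3823 lower. Of 8 further regulators 6 were tested, 2 were higher (17.3% of all tested genes) and 0 lower (16.1% of all, and here 1 lower at an unadjusted p under 0.05 and 1 with DESeq2). Gdf11, a secreted factor that sets the axial position of Hox expression in the mouse, averaged 14.0 ± 1.47 CPM in Sin3a CKO and 7.03 ± 1.03 CPM in Control (0.99 ± 0.14, adjusted p = 0.000525). Gmnn, which encodes geminin, an inhibitor of replication licensing that also binds Hox proteins, averaged 57.3 ± 7.89 CPM in Sin3a CKO and 38.9 ± 2.25 CPM in Control (0.56 ± 0.10, adjusted p = 0.00235).

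Of 15 tested genes of retinoic acid supply and reception, 6 were lower (16.1% of all tested genes), 0 higher (17.3% of all, and 0 here also at an unadjusted p under 0.05 and with DESeq2) and 9 did not pass, with a median of -0.30. Rarb, a retinoic acid receptor gene that is itself induced by the ligand, had 8.32, 8.43, 6.96 and 8.92 CPM in Sin3a CKO, against 14.1, 12.7, 12.1 and 15.004 CPM in Control. Its groups did not overlap, and it fell by 0.73 ± 0.12 on the log2 scale (adjusted p = 0.00151). Stra6, which encodes a cell-surface transporter of retinol, averaged 0.307 ± 0.268 CPM in Sin3a CKO and 1.56 ± 0.358 CPM in Control, a log2 fold change of -2.34 ± 0.58 (adjusted p = 0.0110). The count of lower genes in the list ranged with the fit, from 2 with a block for identifier prefix to 10 with upper-quartile scaling, and was 3 without Sin3a CKO 2, Control 1 or Control 2. Of all 20315 tested genes 3306 were lower with the prefix block and 4522 with upper-quartile scaling. The lower genes were 2660 of 20757 without Sin3a CKO 2, 2548 of 21326 without Control 1 and 2743 of 21016 without Control 2.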

How the data were processed

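RNA of 8 libraries, 4 Sin3a CKO and 4 Control by their titles, was sequenced after TRIzol extraction and a Takara SMARTer v4 and Nextera XT preparation, per the labels' protocols. Per the submitters' processing notes, STAR 2.5.3a, RSEM 1.3.0, edgeR and the build mm10 were used, with roles unstated. Expected counts from RSEM, deposited by the authors as 1 gene table, held a whole number in 100% of cells and needed no rounding. No source used here states the strand setting or annotation release. GENCODE M21 supplied coordinates and exon lengths for 51719 of 51912 genes.

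Genes were kept by filterByExpr (minimum count 10), scaled by TMM and tested in R 4.3.3 with edgeR 4.0.16 (quasi-likelihood, robust, 2-sided, group as the only term), with Benjamini-Hochberg adjustment over all 20315 tested genes and a threshold of 0.05. SE is the absolute log2 fold change (Sin3a CKO over Control) divided by the square root of F. P-values measure the spread between these libraries only. The script was tested on simulated data. Library totals were 96098322 to 108493347 counts, and the SEs also hold the spread between libraries. Paralog ratios used counts plus 0.5.

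Hox genes and all lists were chosen with earlier results of these data known. Every Hox gene but 1 is named, and from each other list the called genes with the smallest p, at most 2 in each direction. Meis1, Sin3a and the genes whose exons overlap a Hox gene are named beyond that rule. Of the called genes, 1 Hox gene and 1 cofactor gene are not reported here, though counts and medians over lists include them. Alternatives were RLE and upper-quartile scaling, other filters, DESeq2 1.42.0, limma-voom (limma 3.58.1), blocks for replicate number and identifier prefix, and each library left out; their use for the other lists, the within-prefix differences and the ratios at numbers 2, 3, 6 and 7 were added after seeing the data. No 2 libraries of the same group agreed within sampling noise.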

Additional observations from a re-analysis of the deposited data

Results flagged for a closer look

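In groups of 4 libraries, 96 sets of values were searched for a library standing far from the other 3 (Dixon's test), and 4 were found; chance gives about 1 in 20. Hoxa2 had 15.2 CPM in Control 4, against 18.4 to 18.7 CPM in the other controls. Cbx6 had 90.9 CPM in Sin3a CKO 2, against 100.8 to 101.7 CPM in the other Sin3a CKO libraries. The log2 ratio of Hoxa5 to Hoxc5 was 14.5 in Sin3a CKO 3, against 9.42 to 10.2 in the other Sin3a CKO libraries, and that of Hoxb5 to Hoxc5 was 14.9, against 9.81 to 10.6. Both ratios share their denominator, Hoxc5, which had 0 counts in Sin3a CKO 3, so the ratio there is set by the 0.5 added to the counts.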

How the results depend on the processing

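Over 16 alternatives Hoxb4 and Hoxb6 were called in all, at log2 fold changes of 0.46 to 0.68 and 0.38 to 0.58. Hoxa4 was lost without a filter (adjusted p = 0.0674), and the number of higher Hox genes was 2 to 4. Lower Hox genes, 4 as reported, were 2 with a replicate block and 2 with the identifier prefix block, and 0 to 5 with each library left out (0 without Control 2, 1 without Control 1 or Sin3a CKO 2). Of all tested genes 3274 of 20315 were lower as reported, 3222 with the replicate block and 3306 with the prefix block. The lower genes were 2743 of 21016 without Control 2, 2548 of 21326 without Control 1 and 2660 of 20757 without Sin3a CKO 2. Of all tested genes 14.9% were called without a filter and 51.5% at a mean of at least 1 CPM, where Hoxc4 was not tested. Upper-quartile scaling moved the median of all genes to -0.06, against 0.04 as reported, and the higher share of calls to 38.2%, against 51.8% (36.9% without a filter). Hoxb3 was -0.027 with RLE, -0.10 with upper-quartile scaling, -0.10 without a filter and -0.027 with DESeq2. Hoxa2 was -0.023 with upper-quartile scaling and -0.014 without a filter. Hoxa9 was 0.012 with limma-voom and 0.042 with a replicate block, and with the prefix block Hoxa3 was 0.0014 and Hoxb1 -0.10. With each library left out Hoxb3 ran from -0.058 to 0.047, Hoxa9 from -0.53 to 0.51, Hoxa2 from -0.035 to 0.13, Hoxa3 from -0.12 to 0.016 and Hoxb1 from -0.18 to 0.88. The causes were not tested. Replicate numbers did not pair the libraries: correlations of same-numbered deviations were -0.08, -0.09, 0.22 and 0.16, and not every library correlated best with its own number. With the replicate block 4 Hox genes were higher and 2 lower (33.4% of all genes called). Of the other genes inside the clusters 2 of 10 were higher as reported, 1 with either block and 0 of 24 without a filter. Of all genes 3518 of 20315 were higher as reported and 2233 of 40662 without a filter. The 20 Hox genes below the filter had at most 35 counts in a library.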
